A study of Mus musculus with 12 samples.

Results

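Collagens are the fibre-forming and network-forming proteins of the extracellular matrix, and their genes were followed through 12 RNA-seq libraries of mouse pancreatic islets. The members were all rows of the deposited gene table whose symbol has the form Col, a number, a and a number, which gave 44 of 24421 genes. Of these, 42 had enough reads to be tested, and the cartilage genes Col2a1 and Col9a1 were at or near 0. The family was split into the 6 fibrillar chains of collagens I, III and V, the 6 basement membrane chains of collagen IV, and 32 others. Knockout mice were Bmal1fl/fl RIPCreERT/+, in which a Cre recombinase fused to the oestrogen receptor is driven by the rat insulin promoter and so acts mainly in beta cells; the labels name no agent that induced it. Control mice were Bmal1fl/fl without Cre, and all mice therefore carried the floxed allele. Cre was thus in knockout mice only, and its effects cannot be told apart from those of Bmal1 deletion. Each genotype was sampled 24 h after citrate buffer (vehicle), 24 h after streptozotocin (STZ, which enters and kills beta cells) and 4 wk after STZ. The 6 groups have 2 libraries each, called A and B. The vehicle islets were all taken at 24 h, so a comparison of 4 wk with vehicle mixes treatment and time. Whether A and B stand for different animals is not stated in the labels. A p-value here therefore reflects the variation between libraries alone, and that variation may be technical.

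Every collagen is a trimer of chains that wind into a triple helix. Collagens I, III and V assemble into the fibrils of connective tissue and are made mainly by fibroblasts and related stellate cells. Collagen IV forms the sheet-like network of basement membranes, and in mouse islets much of that membrane is laid down by the endothelial cells of the islet capillaries. Beta cells are known to make little collagen themselves, and the cell source of the transcripts measured here was not tested. In bulk RNA, fewer cells of a type and less RNA per cell cannot be told apart.

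Libraries held 101772241 to 127207523 estimated counts. Exon 8 of Arntl, the gene for BMAL1, was covered relative to its transcript at -0.67 to 0.45 (log2) in the 6 knockout libraries. It stood at 0.64 to 0.99 in the 6 control libraries, so the ranges lay close together without overlapping. Every Arntl exon was compared in this way, and exon 8 had the most negative mean of knockout minus control, -1.01. Under vehicle the coverage of this exon itself was not lower in knockout. It was 39.4 and 36.4 times in knockout and 35.4 and 32.2 times in control libraries. The level of Arntl as a whole gene was higher in knockout under vehicle. This level was 17.8 and 19.9 CPM (counts scaled to library size) in knockout and 8.79 and 8.36 CPM in control libraries. It was lower in knockout after STZ, at 8.88 and 9.43 CPM in knockout and 11.2 and 10.8 CPM in control libraries at 24 h, and at 11.3 and 11.6 CPM in knockout and 20.6 and 20.4 CPM in control libraries at 4 wk. Insulin genes and other beta cell markers were abundant everywhere. Under vehicle 8 beta cell genes summed to 125180 and 83115 CPM in knockout and 96590 and 81364 CPM in control libraries. They summed to 22260 to 24846 CPM in knockout and 117268 to 126087 CPM in control libraries 24 h after STZ. Their sum at 24 h was thus below vehicle in knockout and not in control. The preparations also held liver, intestine and stomach transcripts, in amounts that differed between groups. Enzyme genes of acinar cells, the exocrine cells of the pancreas, differed between genotypes in the same directions as most fibrillar values described below: 10 of them took 8.77 and 8.62% of all counts in knockout and 26.1 and 25.3% in control vehicle libraries, 26.6 and 27.2% in knockout and 17.7 and 17.9% in control libraries 24 h after STZ, and 18.2 and 18.4% in knockout and 15.2% in both control libraries at 4 wk. Libraries A and B of a group differed along GC content: over the 28 members averaging at least 2 CPM, the gap between B and A correlated with GC content at -0.88 in knockout vehicle and 0.89 in knockout 4 wk libraries. These correlations are across genes of the same 2 libraries and describe those libraries only. The median GC content of the members was 55.1%, against 48.6% over all genes with a value.

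Compared per length, in TPM (abundance per transcript length, scaled to a fixed total per library), the same few chains led in every group. Col4a1, the common basement membrane chain, came first under vehicle, at 40.4 and 33.3 TPM in knockout libraries and 17.2 and 16.4 TPM in control libraries. In control vehicle its range overlapped that of Col3a1, the chain of the pliable collagen III fibrils, which had 16.0 and 16.4 TPM there. After STZ at 24 h Col3a1 came first, at 59.4 and 65.3 TPM in knockout libraries and 41.2 and 39.2 TPM in control libraries. At 4 wk Col3a1 led in knockout, at 36.3 and 37.6 TPM, with a range inside that of Col4a1 at 22.1 and 37.9 TPM. Control 4 wk libraries kept Col4a1 first, at 21.6 and 30.2 TPM, ahead of Col6a6, a chain of the collagen VI filament family, at 15.6 and 16.1 TPM.

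The summed TPM of all 44 genes was 146.6 and 128.9 in knockout and 97.9 and 96.7 in control vehicle libraries. At 24 h after STZ it was 249.6 and 280.5 in knockout and 201.6 and 201.5 in control libraries, and at 4 wk 173.4 and 245.0 in knockout and 110.2 and 134.8 in control libraries. TPM carries no correction for library composition, and under the TMM scaling used for the tests the vehicle direction was not the same, with a median log2 of -0.17 over the 42 members tested. The fibrillar chains made up 43.96 and 43.5% of this sum in knockout libraries 24 h after STZ, against 36.5 and 35.8% in control libraries. Under vehicle their share was lower in knockout, at 21.6 and 24.3%, than in control, at 27.6 and 27.9%. At 4 wk the order turned again, with 33.3 and 28.6% in knockout and 21.3 and 20.0% in control libraries. The share of Col4a1 and Col4a2 went the other way, at 17.8 and 18.5% in knockout and 23.6 and 24.1% in control libraries 24 h after STZ, and the genotypes did not overlap in any of the 3 conditions.

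**Figure D1:**
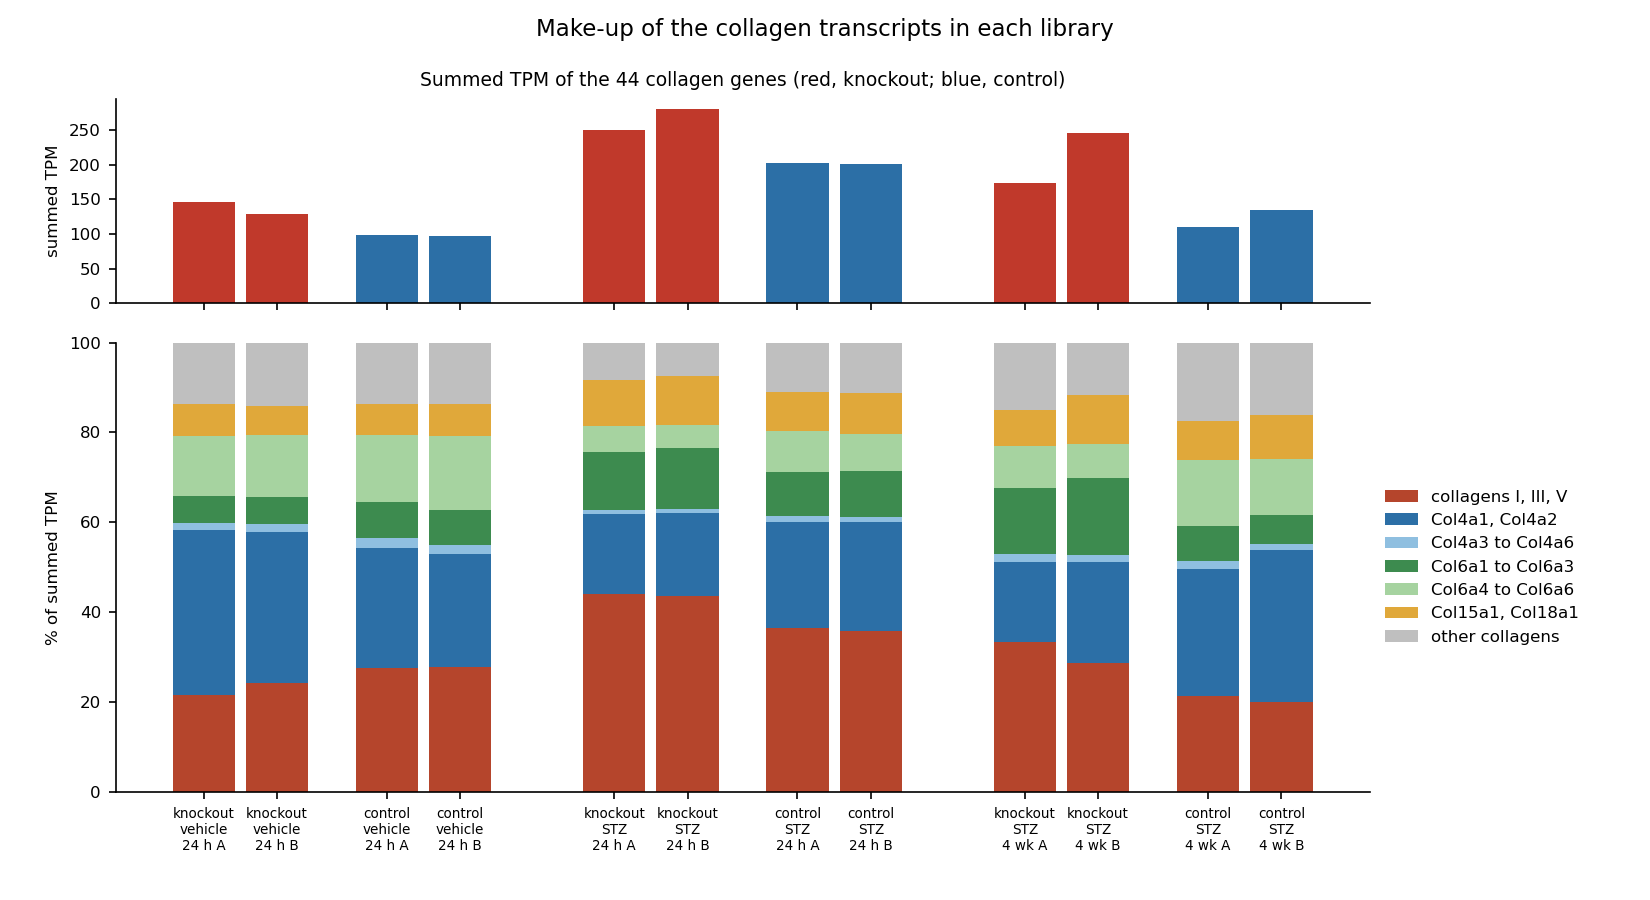
Upper panel: summed TPM of the 44 collagen genes in each library (y axis, TPM). Lower panel: the percentage of that sum held by each collagen class (y axis, %). Knockout libraries 24 h after STZ have the largest fibrillar share, 43.96 and 43.5%. The share of Col4a1 and Col4a2 is 36.8 and 33.5% in vehicle knockout libraries and 28.4 and 33.8% in control 4 wk libraries.

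The vehicle comparison sets knockout against control in uninjured islets. Of the 42 members tested, 5 were lower in knockout and 0 higher: the basement membrane chains Col4a5 and Col4a6, the anchoring fibril chain Col7a1, Col3a1, and Col14a1, which coats the surface of fibrils. Over all 17411 genes tested, 9.64% passed in this comparison, 7.68% as lower and 1.96% as higher, so 5 of 42 members is close to the background. Col4a6 was at 0.238 and 0.311 CPM in knockout and 1.501 and 0.967 CPM in control libraries, and its level in knockout lay below that in control in both libraries. Its log2 fold change was -2.17 (SE 0.42, adjusted p = 0.0119), and that of Col4a5, its neighbour on the X chromosome, was -0.91 (SE 0.18, adjusted p = 0.0122). Col7a1 had 2.43 and 0.842 CPM in knockout and 9.92 and 7.61 CPM in control libraries (log2 -2.42, SE 0.60, adjusted p = 0.0371).

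Each of these 5 calls ended when certain single libraries were left out. The count fell to 0 without control vehicle A, 1 without knockout vehicle B, 2 without either control vehicle B or knockout vehicle A, and 3 without either control library of STZ 24 h. Col3a1 was lower by -0.56 (SE 0.13, adjusted p = 0.0254), and scaled to total counts it stood at -0.02 (adjusted p = 0.919), Col4a5 at -0.38 (adjusted p = 0.107) and Col14a1 at 0.03 (adjusted p = 0.846). Total-count scaling moved the median of all genes by 0.53 in this comparison, and changes are therefore read relative to that shift. Markers of other tissues moved along with these genes: 6 stomach genes summed to 5.9 to 6.8 CPM in knockout and 228.7 to 249.9 CPM in control vehicle libraries, with Gkn1, Gkn2, Tff1 and Muc5ac at 0 in knockout. Likewise 6 smooth muscle genes summed to 16.8 to 22.5 CPM in knockout, with Cnn1 at 0, and 177.5 to 185.5 CPM in control libraries. All 6 of these genes passed as lower in knockout, against 7.68% of all genes. A list of 12 pericyte and smooth muscle genes, which shares 5 genes with it, summed to 112.7 to 120.7 CPM in knockout and 323.8 to 324.2 CPM in control, with 7 lower and 0 higher, and all 10 acinar genes were lower as well. The part of these genes in the collagen differences was not tested.

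Col4a5 and Col4a6 lie head to head on the X chromosome, with starts 1342 bases apart, and over the 12 libraries their log2 CPM correlated at r = 0.92. The 250 bases before each start are shown because both genes changed together in the vehicle comparison. They are from RefSeq on GRCm38.p6 (mm10), Col4a5 at chrX:141475169-141475418 on the plus strand and Col4a6 at chrX:141474077-141474326 on the minus strand, each written 5′ to 3′ with CCAAT and GGGCGG matches on either strand in capitals.
Col4a5: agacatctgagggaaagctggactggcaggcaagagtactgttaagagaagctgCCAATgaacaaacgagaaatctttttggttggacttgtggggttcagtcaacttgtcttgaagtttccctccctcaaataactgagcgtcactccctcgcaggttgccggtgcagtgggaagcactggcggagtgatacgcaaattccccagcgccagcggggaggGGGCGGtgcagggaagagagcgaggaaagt
Col4a6: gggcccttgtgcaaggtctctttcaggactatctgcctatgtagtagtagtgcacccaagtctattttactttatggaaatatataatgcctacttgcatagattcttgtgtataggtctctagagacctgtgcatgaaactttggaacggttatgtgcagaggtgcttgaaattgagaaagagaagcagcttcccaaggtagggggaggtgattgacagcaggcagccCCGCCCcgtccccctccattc
Each window held a GGGCGG match, and the Col4a5 window held CCAAT as well. Neither held the E-box CACGTG, the letters that CLOCK:BMAL1 is known to bind.

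The comparison 24 h after STZ sets knockout against control after injury, and most fibrillar chains were higher in knockout. Of the 6 chains, 4 passed as higher and 0 as lower, namely Col1a2, Col3a1, Col5a1 and Col5a2, against 43% of all genes called (23.7% higher and 19.4% lower). The median log2 was 0.93 over the 6 chains and 0.00 over all genes tested. Col3a1 had 253.5 and 282.7 CPM in knockout and 151.0 and 148.5 CPM in control libraries. Both knockout libraries lay far above both control libraries, and the log2 fold change was 0.84 (SE 0.13, adjusted p = 0.000781). Col1a2, the second chain of collagen I, had 109.8 and 119.8 CPM in knockout and 59.3 and 64.4 CPM in control libraries (log2 0.89, SE 0.24, adjusted p = 0.0157). Col5a1 and Col5a2, chains of collagen V, which helps to start fibrils and sets their width, differed by 1.16 (SE 0.30, adjusted p = 0.0142) and 0.97 (SE 0.17, adjusted p = 0.00158). Col5a2 stood at 35.6 and 37.3 CPM in knockout and 19.0 and 18.2 CPM in control libraries, with no overlap.

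Col1a1, the main chain of collagen I, had a fold change as large but did not pass. It had 41.2 and 54.4 CPM in knockout and 24.1 and 25.0 CPM in control libraries (log2 0.96, SE 0.51, adjusted p = 0.166). Its knockout libraries were both above its control libraries, and A and B differed more for it than for Col3a1. With an offset for GC content Col1a1 passed at 1.03 (adjusted p = 0.00361), and 6 of 6 fibrillar chains were then higher. Col5a3, the GC-richest of the 6 chains at 61.6%, was at 5.72 and 6.13 CPM in knockout and 4.39 and 4.98 CPM in control libraries, a log2 difference of 0.34 (SE 0.51, adjusted p = 0.631). Col1a2 lost its call without control STZ 24 h A (adjusted p = 0.093), control STZ 24 h B (0.0626) or knockout STZ 24 h B (0.0773). The same 3 libraries ended the call of Col5a1, at adjusted p = 0.0772, 0.0722 and 0.0814. Under each of the scalings tried, the 6 fibrillar log2 values stayed above 0, from 0.08 to 2.93. Of the 10 acinar genes 7 were higher in knockout at 24 h and 0 lower, against 23.7% of all genes higher and 19.4% lower. The 12 pericyte and smooth muscle genes summed to 312.1 to 331.5 CPM in knockout and 202.6 to 207.4 CPM in control, with 4 higher and 1 lower. The part of either list in the fibrillar differences was not tested.

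**Figure D2:**
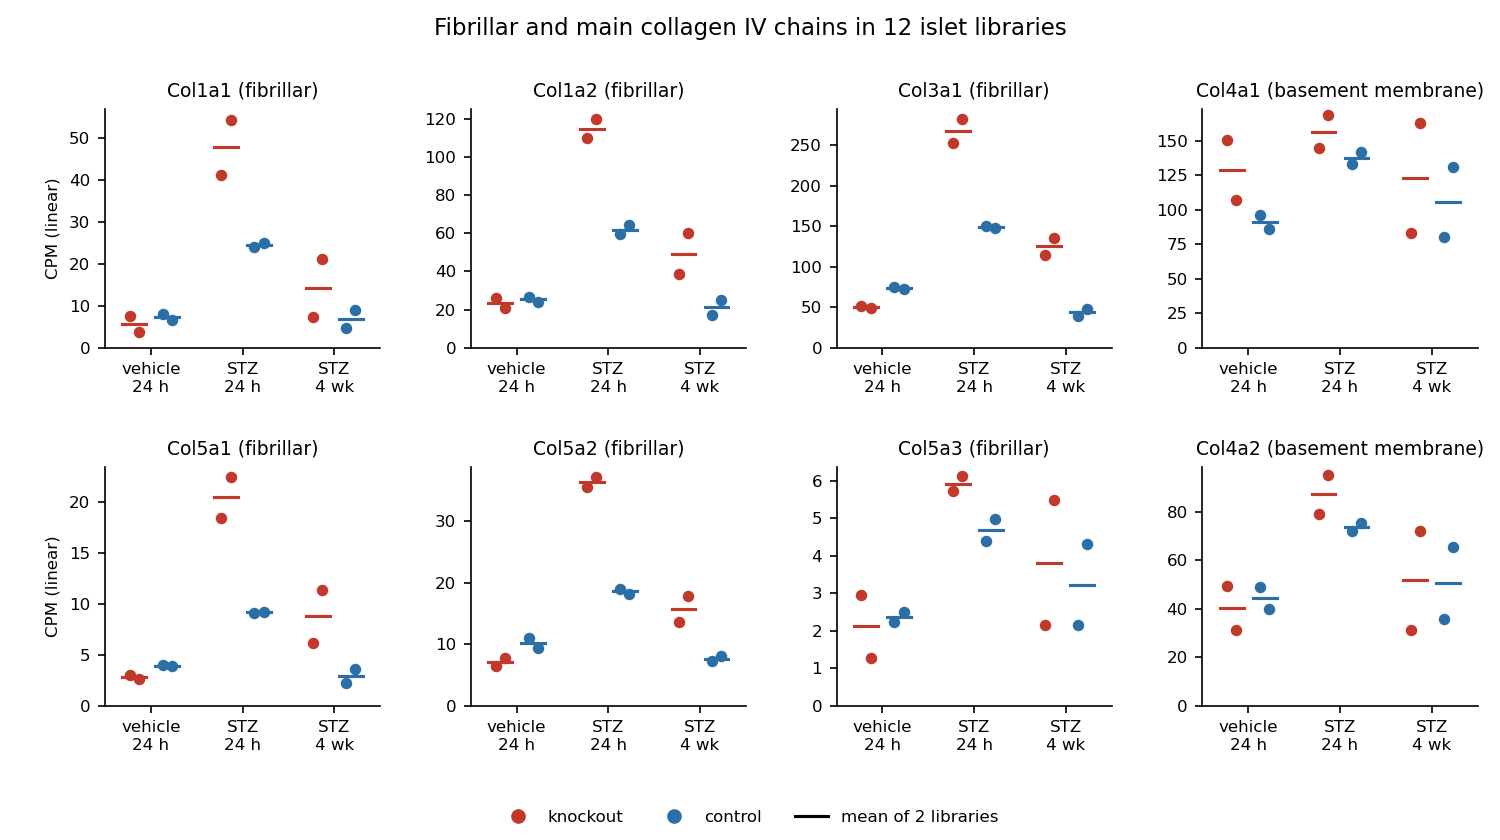
CPM (y axis, linear) of the 6 fibrillar chains and of Col4a1 and Col4a2 in each library, by condition (x axis); points are libraries A (left) and B (right) and lines are means of 2 libraries. For Col3a1 the knockout libraries lie at 253.5 and 282.7 CPM and the control libraries at 151.0 and 148.5 CPM 24 h after STZ. For Col4a1 and Col4a2 the genotypes lie close at that time, and under vehicle Col4a1 is higher in both knockout libraries.

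The start regions of Col1a2 and Col3a1 are shown as those of 2 fibrillar genes that moved together after STZ. They are RefSeq windows on GRCm38.p6 of 250 bases, Col1a2 at chr6:4505368-4505617 and Col3a1 at chr1:45311288-45311537, both on the plus strand, with matches on either strand to the CCAAT box, the GC box (GGGCGG) and the TATA box (TATAAA) in capitals. The RefSeq start of Col1a2 at 4505618 lies upstream of the start at 4505697 in the deposited transcripts, and the window follows RefSeq.
Col1a2: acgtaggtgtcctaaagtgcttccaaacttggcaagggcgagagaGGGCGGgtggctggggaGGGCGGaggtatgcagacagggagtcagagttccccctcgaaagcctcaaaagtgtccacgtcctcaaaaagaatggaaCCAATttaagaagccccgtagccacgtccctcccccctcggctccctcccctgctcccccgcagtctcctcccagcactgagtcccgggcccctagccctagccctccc
Col3a1: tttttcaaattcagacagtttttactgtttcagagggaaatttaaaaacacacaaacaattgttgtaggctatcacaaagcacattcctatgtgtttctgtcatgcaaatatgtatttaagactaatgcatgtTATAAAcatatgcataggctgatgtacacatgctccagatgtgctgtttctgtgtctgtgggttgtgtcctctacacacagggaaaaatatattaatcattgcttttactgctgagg
The windows share none of these motifs. Col1a2 held 2 GGGCGG matches and 1 CCAAT match at a GC content of 62%, and Col3a1 held 1 TATAAA match at 35.2%.

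Relative to vehicle, STZ at 24 h was followed by higher fibrillar transcripts in both genotypes. In knockout islets 6 of 6 fibrillar chains were higher, by log2 1.48 (Col5a3) to 3.08 (Col1a1), and in control islets 4 of 6 were, Col1a2, Col3a1, Col5a1 and Col5a2, by 0.86 to 1.29. Across the family 28 of 42 members passed in knockout, 22 higher and 6 lower, against 56.4% of all genes called (30.1% higher and 26.2% lower). In control islets 9 of 42 passed, 8 higher and 1 lower, against 7.56% of all genes called (5.41% higher and 2.15% lower). The control count fell to 4 without control STZ 24 h A, 5 without control vehicle A, and 3 without either control STZ 24 h B or control vehicle B. In control the calls of Col1a2, Col5a1 and Col5a2 were among those that ended, with adjusted p up to 0.107, 0.241 and 0.118, each highest without control vehicle B. The calls of Col5a3 and Col4a2 in knockout ended when libraries were left out, with adjusted p up to 0.191 and 0.221, both without knockout vehicle B. Scaled to total counts Col5a3 did not pass there (1.001, adjusted p = 0.112), nor with the replicate letter as a block (adjusted p = 0.0535), and 5 of 6 chains were then higher. Col3a1 reached 253.5 and 282.7 CPM in knockout STZ 24 h libraries, against 51.8 and 48.7 CPM in knockout vehicle libraries (log2 2.41, SE 0.13, adjusted p = 1.01e-06). In control islets it stood at 151.0 and 148.5 CPM 24 h after STZ and at 75.2 and 72.6 CPM under vehicle (log2 1.02, SE 0.13, adjusted p = 0.00104). These comparisons share libraries with the genotype comparisons above, so the values are given side by side only.

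Whether the STZ effect at 24 h differed between genotypes was tested directly, as the effect in knockout minus that in control. In this test 17 of 42 members passed, 14 higher and 3 lower, against 37.7% of all genes called (21.1% higher and 16.6% lower). Of the fibrillar chains Col1a2, Col3a1, Col5a1 and Col5a2 passed, with differences of 1.01 (SE 0.34, adjusted p = 0.0443), 1.40 (SE 0.18, adjusted p = 0.000349), 1.64 (SE 0.43, adjusted p = 0.0162) and 1.496 (SE 0.24, adjusted p = 0.00111). The vehicle libraries enter these differences, so the lower vehicle level of Col3a1 in knockout is part of its value. The call of Col1a2 ended without any of 7 libraries, with adjusted p of 0.0831 to 0.13, and at 0.0504 with the replicate letter as a block. Without control STZ 24 h A, control STZ 24 h B, knockout STZ 24 h B or knockout vehicle B, the call of Col5a1 ended at adjusted p of 0.0523 to 0.0587. Scaled to total counts, Col1a2 and Col5a1 did not pass.

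At 4 wk most collagen genes that differed were higher in knockout. Of 42 members tested, 17 passed, 16 higher and 1 lower, against 27.8% of all genes called in either direction with 19.9% called higher and 7.89% lower. At 24 h it had been 17 of 42 as well, 14 higher and 3 lower, but with 43% of all genes called, which the members' share of 40.5% did not exceed. The 24 h count was 11 without control STZ 24 h A or knockout STZ 24 h B. At 4 wk Col1a2, Col3a1, Col5a1 and Col5a2 again passed, and Col1a1 and Col5a3 did not. Col3a1 had 114.3 and 136.3 CPM in knockout and 39.8 and 47.8 CPM in control libraries (log2 1.52, SE 0.13, adjusted p = 4.32e-05). Its log2 difference was larger than at 24 h while its gap in CPM was not, and the times were not tested against each other. Col5a1 had 6.19 and 11.4 CPM in knockout and 2.21 and 3.58 CPM in control libraries (log2 1.60, SE 0.31, adjusted p = 0.00485). Col1a2 differed by 1.22 (SE 0.24, adjusted p = 0.00544) and Col5a2 by 1.04 (SE 0.17, adjusted p = 0.00173). Col1a1 shows how far A and B could part, at 7.45 and 21.2 CPM in knockout and 4.72 and 9.11 CPM in control libraries. Its ranges overlapped across the letters, while within A and within B the knockout library was the higher one. B lay above A in both genotypes, by log2 1.45 in knockout and 0.88 in control. The log2 of 1.05 (SE 0.52, adjusted p = 0.179) did not pass. It passed with the GC offset, at 1.06 (adjusted p = 0.00473), scaled to endocrine genes, at 1.72 (adjusted p = 0.00922), and without knockout STZ 4 wk A, at 1.61 (adjusted p = 0.0294), and stood at 0.11 (adjusted p = 0.902) without knockout STZ 4 wk B.

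Relative to vehicle, no fibrillar chain passed as higher in control islets 4 wk after STZ. Of 42 members 4 passed there, 1 higher and 3 lower, close to the 8.99% of all genes called (4.98% higher and 4.01% lower), and Col3a1 was among the lower ones, at 39.8 and 47.8 CPM 4 wk after STZ and 75.2 and 72.6 CPM under vehicle (log2 -0.75, SE 0.13, adjusted p = 0.00602). That call ended without control vehicle A (adjusted p = 0.0513) and when scaled to total counts (-0.37, adjusted p = 0.0592). The single member called higher was Col6a4. Without control STZ 4 wk A the control count was 2, and without control vehicle A it was 1. Knockout islets at 4 wk had 18 of 42 members called, 17 higher and 1 lower, against 35.9% of all genes (24.1% higher and 11.7% lower), and Col3a1 was higher there by 1.32 (SE 0.13, adjusted p = 5.57e-05). Col1a2 passed there by 1.08, a call that ended without knockout vehicle B (adjusted p = 0.0612). The difference of the 4 wk effect between genotypes passed for 16 of 42 members, all higher, against 26.1% of all genes called (18.7% higher and 7.35% lower), Col3a1 at 2.07 (SE 0.18, adjusted p = 4.75e-05) among them.

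**Figure D3:**
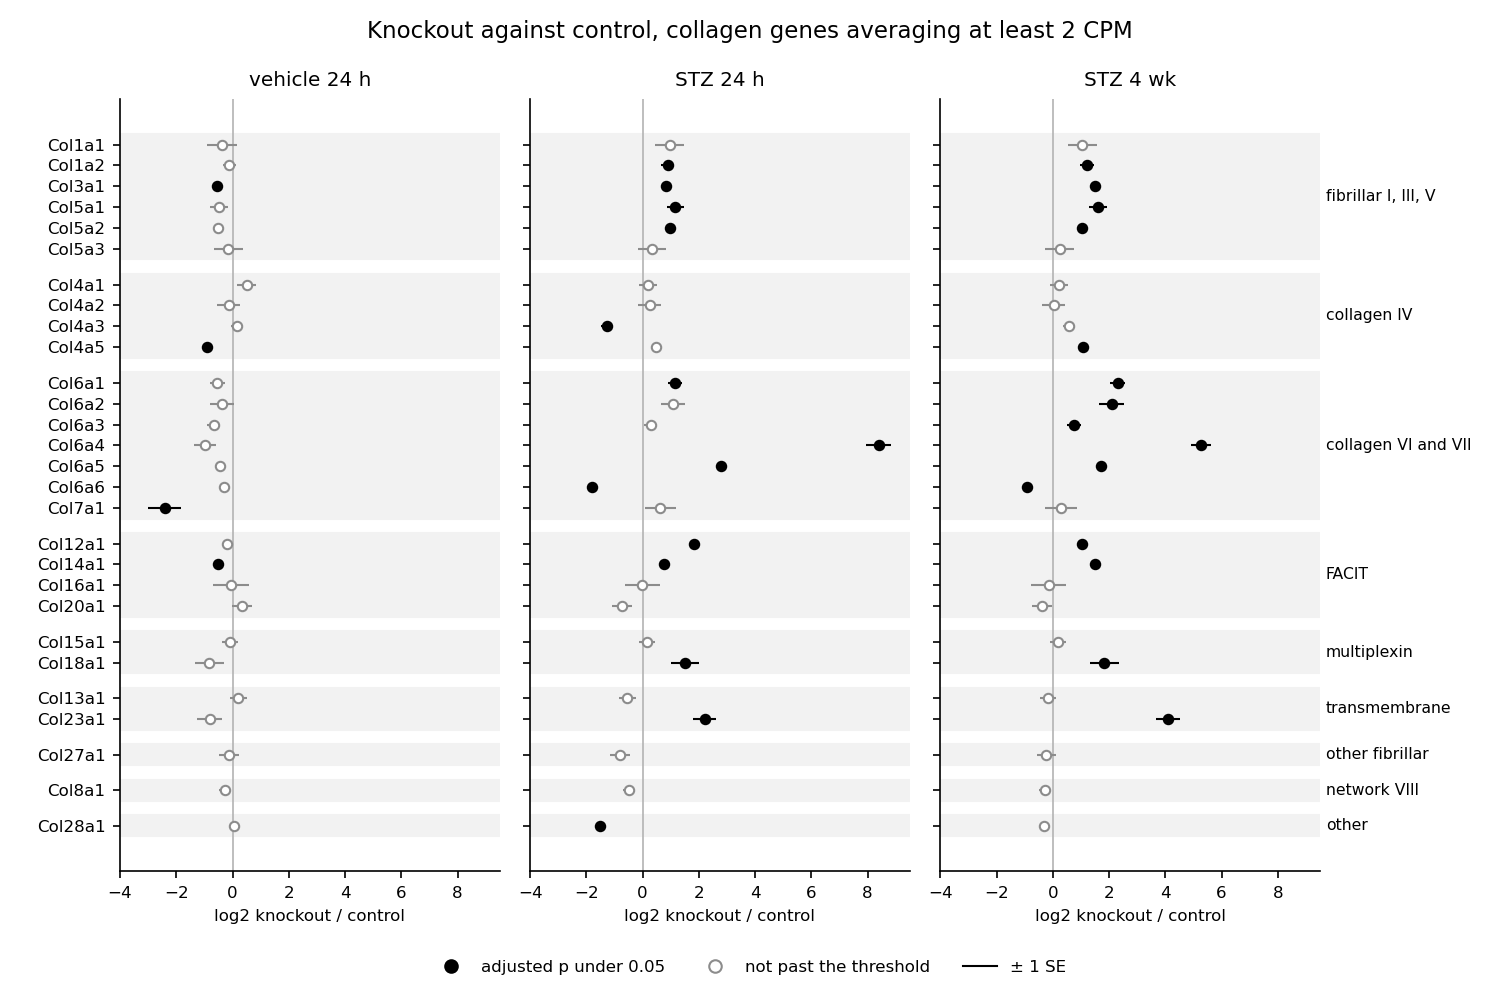
Log2 of knockout over control (x axis) for the 28 members averaging at least 2 CPM (y axis, by class) in the 3 conditions; filled points passed an adjusted p of 0.05, and bars are 1 SE. Fibrillar chains lie left of 0 under vehicle and right of 0 in both STZ conditions, while Col4a1 and Col4a2 stay between -0.14 and 0.50; with total-count scaling the fibrillar values under vehicle run from -0.02 to 0.42.

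The main basement membrane chains did not pass between genotypes in any condition. Col4a1 had 144.4 and 168.5 CPM in knockout and 133.1 and 141.9 CPM in control libraries 24 h after STZ (log2 0.19, SE 0.33, adjusted p = 0.686). Col4a2, its partner in the common collagen IV trimer, had 79.0 and 95.1 CPM in knockout and 71.9 and 75.1 CPM in control libraries (log2 0.24, SE 0.41, adjusted p = 0.668). Knockout libraries were slightly above control libraries for both, by less than the spread that the fit assigns to these genes. With the GC offset Col4a2 passed at 0.42 (adjusted p = 0.00243) and Col4a1 did not, at 0.20 (adjusted p = 0.0518). At 4 wk Col4a1 ranged from 82.96 to 163.1 CPM in knockout and from 80.5 to 131.3 CPM in control libraries, and the genotypes overlapped. Under vehicle Col4a1 was at 150.7 and 107.3 CPM in knockout and 96.5 and 86.2 CPM in control libraries (log2 0.50, SE 0.33, adjusted p = 0.512). It passed there with the GC offset (0.37, adjusted p = 0.00931) and with total-count scaling (1.03, adjusted p = 0.0347). Col4a2 passed under vehicle in the other direction with the GC offset (-0.36, adjusted p = 0.0177). With total-count scaling Col4a2 did not pass (0.40, adjusted p = 0.435). Against vehicle, Col4a2 passed in knockout 24 h after STZ, by 1.11 (SE 0.41, adjusted p = 0.0458), a call that ended when scaled to total counts (0.64, adjusted p = 0.191), and Col4a1 did not pass. In control islets at 24 h both passed against vehicle with the GC offset, Col4a1 at 0.32 (adjusted p = 0.022) and Col4a2 at 0.41 (adjusted p = 0.0119), and also in a fit of only the libraries compared, at 0.58 (adjusted p = 0.000306) and 0.72 (adjusted p = 0.000949).

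The 4 minor collagen IV chains, at most 9.29 CPM, did not move as a set. Col4a3, known from the filtering membrane of the kidney, was at 1.86 and 1.36 CPM in knockout and 4.04 and 3.76 CPM in control libraries 24 h after STZ. Knockout was below control in both libraries (log2 -1.28, SE 0.22, adjusted p = 0.00159), but scaled to endocrine genes the difference was 0.51 (adjusted p = 0.0572). That scaling moved the median of all genes by 1.78 in this comparison, by 0.72 at 4 wk and by -0.38 under vehicle, because 16 genes shared by all endocrine cells summed to 5937 to 6020 CPM in knockout and 22420 to 22586 CPM in control libraries 24 h after STZ. Col4a6 at 4 wk was at 1.43 and 1.74 CPM in knockout and 0.090 and 0.218 CPM in control libraries (log2 3.34, SE 0.44, adjusted p = 0.0006). Col4a5, whose trimer with Col4a6 is found around smooth muscle, was at 6.39 and 8.26 CPM in knockout and 3.20 and 3.81 CPM in control libraries (log2 1.06, SE 0.18, adjusted p = 0.00221). The pair thus stood higher in knockout at 4 wk and lower in knockout under vehicle. The 6 smooth muscle genes summed to 64.4 to 102.8 CPM in knockout and 20.3 to 28.1 CPM in control libraries at 4 wk. All 6 were called higher in knockout, against 19.9% of all genes, and their part in these differences was not tested. Col4a6 also passed 24 h after STZ, at 1.57 and 1.58 CPM in knockout and 0.526 and 0.753 CPM in control libraries, and lost that call without any of the 4 libraries compared (adjusted p = 0.0627 to 0.168) and with total-count scaling (0.0546).

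The pairs of collagen IV genes share their start regions. Col4a2 and Col4a1 start 2 bases apart on opposite strands of chromosome 8, Col4a3 and Col4a4 start 71 bases apart on chromosome 1, and over the 12 libraries the log2 CPM of these pairs correlated at r = 0.85 and 0.68. The libraries share depth and GC effects across genes, so these r describe the libraries. Part of the exons of Col4a3 (6.54%) overlaps an antisense transcript, C430014B12Rik, and the counting used the strand.

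The balance of fibrillar and basement membrane transcripts was read in each library as the mean log2 CPM of the 6 fibrillar chains minus that of Col4a1 and Col4a2. Any scaling of a library cancels in this difference, but the GC effect between libraries need not. Col4a1 and Col4a2 have a GC content of 57.7 and 60.6%, and the fibrillar chains run from 49.6% (Col5a2) to 61.6% (Col5a3). It was -1.40 and -1.46 in knockout and -2.06 and -2.09 in control libraries 24 h after STZ. The libraries of a genotype lay close together and the genotypes did not overlap, with a difference of 0.65. At 4 wk it was -1.92 and -2.17 in knockout and -2.94 and -3.13 in control libraries, a difference of 0.996. Under vehicle the order was turned round, with -3.23 and -3.09 in knockout and -2.67 and -2.54 in control libraries, a difference of -0.56. With 2 libraries against 2 no permutation test can pass a threshold of 0.05, so no p is given for these values. Taking all 6 collagen IV chains in place of the main pair, the group means were 2.43 in knockout and 1.61 in control 24 h after STZ, 1.03 in knockout and 0.87 in control at 4 wk, and 0.57 in knockout and 0.59 in control under vehicle. With this measure the genotypes overlapped under vehicle, lay just apart at 4 wk and lay furthest apart at 24 h.

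**Figure D4:**
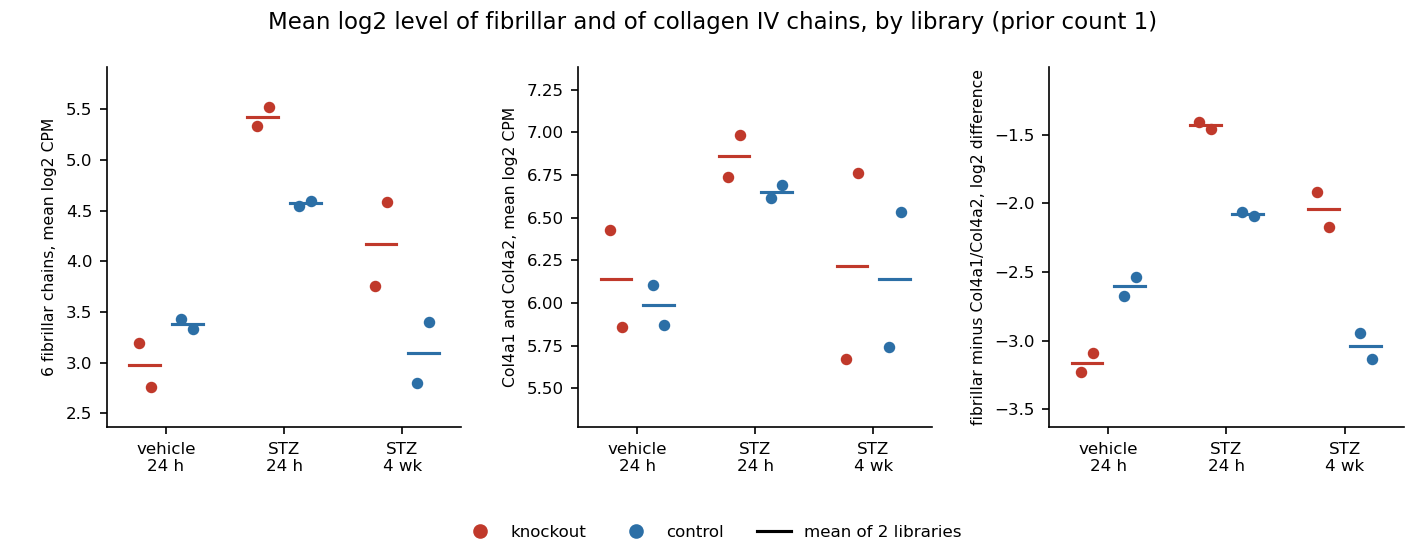
Mean log2 CPM of the 6 fibrillar chains (left), of Col4a1 and Col4a2 (middle) and their difference (right, log2) in each library, by condition (x axis); lines are means of 2 libraries. The difference is higher in knockout in both STZ conditions, -1.40 and -1.46 against -2.06 and -2.09 in control at 24 h, and lower in knockout under vehicle.

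Collagen VI forms beaded filaments that link cells to fibrils, and its 3 classical chains were higher in knockout at 4 wk. Col6a1 had 53.3 and 61.8 CPM in knockout and 25.0 and 26.6 CPM in control libraries 24 h after STZ (log2 1.16, SE 0.26, adjusted p = 0.00613). At 4 wk it had 32.2 and 56.6 CPM in knockout and 7.83 and 10.03 CPM in control libraries (log2 2.31, SE 0.27, adjusted p = 0.000261). The knockout libraries lay above the control libraries in both conditions, with the larger log2 difference at 4 wk. Col6a2 passed at 4 wk (log2 2.09, SE 0.44, adjusted p = 0.00747) and stood at 1.07 (SE 0.43, adjusted p = 0.073) at 24 h. Col6a3, the third chain, passed at 4 wk by 0.76 (SE 0.23, adjusted p = 0.0419), a call that ended without any of 10 libraries, with adjusted p up to 0.148 without knockout STZ 4 wk B. The Col6a3 call also ended under the GC offset (0.0931) and total-count scaling (0.0686). The call of Col6a2 ended without control STZ 4 wk A (adjusted p = 0.0557).

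Col6a4, Col6a5 and Col6a6 code for chains related to that of Col6a3 and lie next to each other on the minus strand of chromosome 9, between 105689417 and 106096691, yet each had a pattern of its own. Col6a4 was at 13.2 and 12.8 CPM in knockout and 0.053 and 0.024 CPM in control libraries 24 h after STZ, and at 29.5 and 39.9 CPM in knockout and 1.03 and 0.765 CPM in control libraries at 4 wk. It was near 0 in control at 24 h and under 1 CPM in all vehicle libraries, so its log2 of 8.39 (SE 0.45, adjusted p = 3.86e-06) at 24 h rests on few control counts. At 4 wk the log2 was 5.27 (SE 0.35, adjusted p = 1.16e-05). Intestine genes had a like pattern: 8 of them summed to 546.1 to 553.5 CPM in knockout and 100.7 to 102.8 CPM in control libraries at 24 h, and to 7776 to 9006 CPM in knockout and 281.8 to 290.3 CPM in control libraries at 4 wk. All 8 passed as higher in knockout at 4 wk, against 19.9% of all genes, and 7 of 8 at 24 h, against 23.7%. Their part in the Col6a4 values was not tested.

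Col6a5 was highest 24 h after STZ, with 62.0 and 58.6 CPM in knockout and 9.04 and 8.55 CPM in control libraries (log2 2.78, SE 0.17, adjusted p = 5.95e-06). At 4 wk it had 7.15 and 7.48 CPM in knockout, against 2.10 and 2.32 CPM in control libraries (log2 1.73, SE 0.16, adjusted p = 8.31e-05). Under vehicle it was between 1.18 and 2.02 CPM in all 4 libraries. Col6a6 ran in the opposite direction, with 19.9 and 20.9 CPM in knockout and 72.4 and 70.7 CPM in control libraries at 24 h (log2 -1.81, SE 0.17, adjusted p = 5.21e-05). At 4 wk it had 30.0 and 39.3 CPM in knockout and 59.0 and 71.7 CPM in control libraries (log2 -0.92, SE 0.16, adjusted p = 0.00323). Scaled to endocrine genes, Col6a6 differed by -0.03 (adjusted p = 0.835) at 24 h and -0.21 (adjusted p = 0.234) at 4 wk. Its lower level in knockout is thus about as large as that of the endocrine genes, and whether the 2 are linked was not tested.

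**Figure D5:**
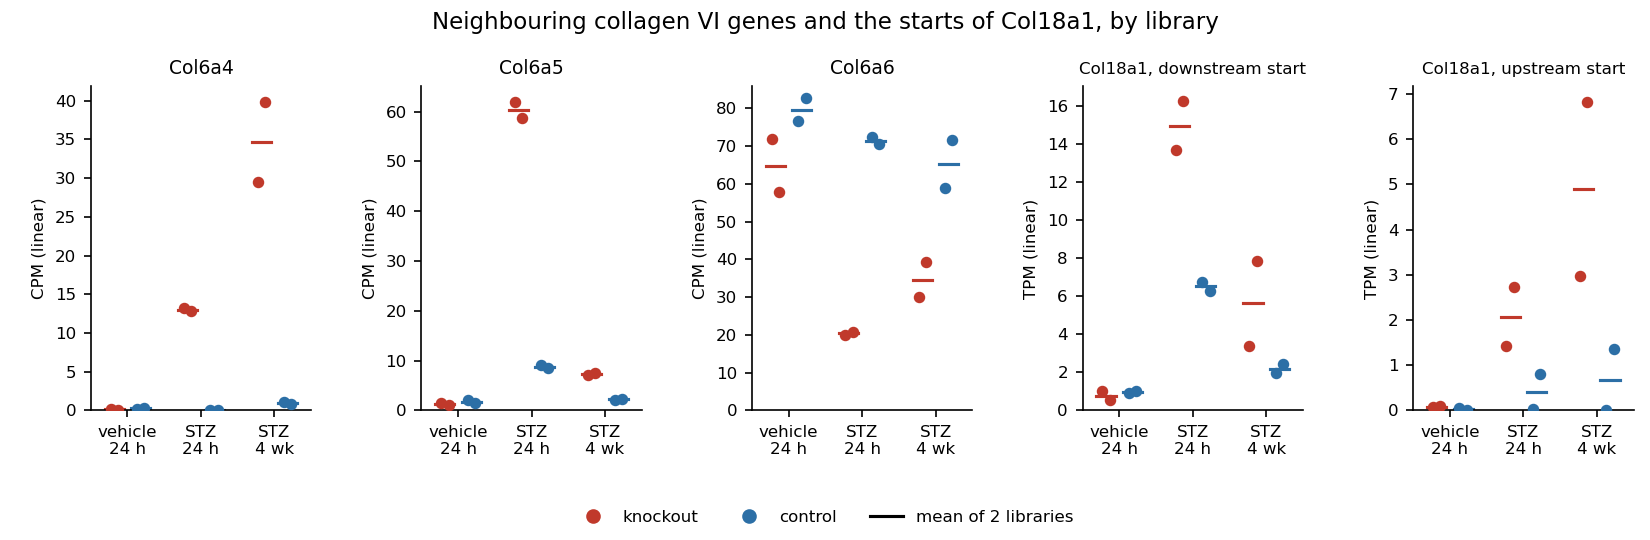
CPM (y axis, linear) of Col6a4, Col6a5 and Col6a6, and TPM (y axis, linear) of the Col18a1 transcripts from the downstream and the upstream start, in each library by condition (x axis); lines are means of 2 libraries. Col6a5 is highest in knockout at 24 h, 62.0 and 58.6 CPM, Col6a4 in knockout at 4 wk, 29.5 and 39.9 CPM, and Col6a6 is lower in knockout than in control in both STZ conditions.

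The multiplexins Col18a1 and Col15a1 sit in or beside vascular and epithelial basement membranes. They parted from each other in the comparison of genotypes after STZ. Col18a1, whose C-terminal fragment is endostatin, had 64.7 and 81.9 CPM in knockout and 25.0 and 26.9 CPM in control libraries 24 h after STZ (log2 1.496, SE 0.50, adjusted p = 0.04). Under vehicle it had 3.39 and 1.75 CPM in knockout and 4.57 and 4.55 CPM in control libraries, so that its log2 rise at 24 h over vehicle was 4.83 in knockout (SE 0.58, adjusted p = 0.000126) and 2.51 in control (SE 0.53, adjusted p = 0.0209). The control call ended without any of the 4 control libraries compared (adjusted p = 0.074 to 0.153). Of the fibrillar, collagen IV and multiplexin genes Col18a1 gained most over vehicle in knockout at 24 h. At 4 wk it was at 19.3 and 51.3 CPM in knockout and 6.25 and 13.5 CPM in control libraries (log2 1.84, SE 0.51, adjusted p = 0.0265). The 24 h call ended without 6 of the 12 libraries, each with an adjusted p of at least 0.0614 and up to 0.162 (without control STZ 24 h A), and with total-count scaling (0.0659), and the 4 wk call ended when either control STZ 4 wk A (0.142) was left out or knockout STZ 4 wk B (0.145). Col15a1, at 40.9 and 46.6 CPM in knockout and 37.1 and 40.7 CPM in control libraries 24 h after STZ, differed by 0.17 (SE 0.28, adjusted p = 0.669). Col15a1 rose over vehicle as well, from a mean of 24.1 to 43.8 CPM in knockout and from 26.0 to 38.9 CPM in control at 24 h. The rise passed in knockout, a call that ended when some single libraries were left out.

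Col18a1 is transcribed from 2 starts on the minus strand of chromosome 10. The downstream one, at 77113705, gives the form known in mice to be abundant in liver, and the upstream one, at 77166530, gives the form known from vessels and epithelia. Their windows are shown because the starts had different estimated shares in knockout at 24 h and at 4 wk. They are RefSeq windows of 250 bases on GRCm38.p6, the downstream one at chr10:77113706-77113955 and the upstream one at chr10:77166531-77166780, written 5′ to 3′ on the minus strand with CCAAT and GGGCGG matches on either strand in capitals.
Col18a1 downstream start: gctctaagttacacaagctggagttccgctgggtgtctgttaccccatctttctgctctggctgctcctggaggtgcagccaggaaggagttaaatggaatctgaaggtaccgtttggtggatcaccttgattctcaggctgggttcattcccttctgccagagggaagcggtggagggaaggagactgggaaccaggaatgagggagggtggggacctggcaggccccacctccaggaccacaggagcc
Col18a1 upstream start: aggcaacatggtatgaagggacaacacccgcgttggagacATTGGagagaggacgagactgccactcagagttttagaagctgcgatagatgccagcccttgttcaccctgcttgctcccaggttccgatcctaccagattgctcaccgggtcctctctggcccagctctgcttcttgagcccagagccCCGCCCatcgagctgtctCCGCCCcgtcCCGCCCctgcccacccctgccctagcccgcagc
The downstream window held none of the motifs searched, and the upstream window held 3 GGGCGG matches and 1 CCAAT match.

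The downstream transcript of Col18a1 was estimated at 13.7 and 16.3 TPM in knockout and 6.73 and 6.31 TPM in control libraries 24 h after STZ, and the upstream one at 1.42 and 2.73 TPM in knockout and 0.0263 and 0.7995 TPM in control libraries. The long first exon of the downstream form was covered 66.9 and 84.7 times in knockout and 28.6 and 33.9 times in control libraries. The upstream form has 2 exons of its own, and on both the genotypes overlapped at 24 h: the 71-base exon was covered 7.24 and 4.01 times in knockout and 0.761 and 5.08 times in control libraries, and the 92-base exon 2.03 and 0.348 times in knockout and 0 and 0.652 times in control libraries. At 4 wk the upstream transcript made up 46.7 and 46.4% of Col18a1 in knockout, with 2.97 and 6.83 TPM, and 0 and 35.9% in control libraries. These shares were StringTie's split of shared exons, and the upstream form's own 2 exons are short. At 4 wk the 71-base exon was covered 6.58 and 30.8 times in knockout and 0 and 5.27 times in control libraries. The 92-base exon was covered 0.5 and 7.89 times in knockout and 0 and 0.511 times in control, so the genotypes overlapped there. Coverage of both exons in knockout thus came mostly from library B. Liver genes moved beside the downstream form at 24 h: 10 of them summed to 16280 to 16942 CPM in knockout and 4730 to 4825 CPM in control libraries. All 10 were called higher in knockout, against 23.7% of all genes, and their part was not tested.

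Of the collagens that coat fibrils, Col12a1 and Col14a1 were higher in knockout in both STZ conditions. Col12a1 had 16.4 and 14.2 CPM in knockout and 4.10 and 4.55 CPM in control libraries at 24 h (log2 1.82, SE 0.18, adjusted p = 7.17e-05), and it differed by 1.03 (SE 0.18, adjusted p = 0.00264) at 4 wk. Col14a1 had 44.9 and 43.7 CPM in knockout and 26.7 and 25.3 CPM in control libraries at 24 h (log2 0.77, SE 0.10, adjusted p = 0.000319), and 35.9 and 32.7 CPM in knockout and 12.5 and 11.6 CPM in control libraries at 4 wk (log2 1.51, SE 0.10, adjusted p = 1.15e-05). Both knockout libraries lay above both control libraries each time. Col14a1 had a GC content of 49.7% and varied little between A and B, and its log2 at 4 wk was close to that of Col3a1.

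Among the transmembrane collagens, Col23a1 was highest in knockout at 4 wk, with 8.22 and 8.80 CPM, against 0.5997 and 0.393 CPM in control libraries (log2 4.10, SE 0.43, adjusted p = 0.000158). At 24 h it had 2.44 and 3.001 CPM in knockout and 0.631 and 0.545 CPM in control libraries (log2 2.21, SE 0.41, adjusted p = 0.00232). Col28a1, known in mice from peripheral nerve, was at 2.26 and 2.18 CPM in knockout and 5.97 and 6.59 CPM in control libraries at 24 h (log2 -1.50, SE 0.15, adjusted p = 6.83e-05), and scaled to endocrine genes it differed by 0.28 (adjusted p = 0.22). The Schwann cell list moved partly with it, with 3 of 7 genes lower and 1 higher in knockout at 24 h. Over all genes 19.4% were called lower and 23.7% higher. The list summed to 21.1 to 22.7 CPM in knockout and 28.1 to 29.0 CPM in control libraries, and its part was not tested. Col7a1 stood at 8.90 and 11.4 CPM in knockout 24 h after STZ and at 2.43 and 0.842 CPM in knockout under vehicle (log2 2.63, SE 0.60, adjusted p = 0.00531).

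A few collagens with very low counts were found almost only in knockout libraries after STZ. Col17a1, a chain of the hemidesmosomes of epithelia, had 78 counts over both knockout libraries and 0 in control at 24 h, at least 30.8-fold higher against a floor of 3 counts over the group. Col22a1 had 142 counts in knockout and 3 in control at 24 h, a ratio of 56.0 (95% counting interval 18.8 to 275), and 66 in knockout and 0 in control at 4 wk, at least 24.0-fold higher. Col24a1 had 59 counts in knockout 24 h after STZ and 153 at 4 wk, and 0 in knockout under vehicle, at least 25.4-fold and 56.2-fold higher. These intervals and bounds cover counting error only. Col17a1, Col22a1 and Col24a1 passed the filter on low counts only through knockout libraries after STZ. Their test calls are therefore not separate support for the counts. Leaving out single libraries ended the test calls of Col17a1 and Col22a1 between genotypes, with adjusted p of 0.0528 to 0.127. The other members tested that did not pass between genotypes in any condition were Col8a1, Col8a2, Col9a2, Col9a3, Col10a1, Col11a1, Col11a2, Col13a1, Col16a1, Col19a1, Col20a1, Col24a1, Col25a1, Col26a1 and Col27a1, together with Col1a1, Col4a1, Col4a2, Col4a4, Col5a3 and Col15a1 named above.

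The genes that make, shape and read collagen were counted in lists of their own. Of 15 tested proteins that decorate fibrils or lie among them, 11 were higher in knockout 24 h after STZ and 10 at 4 wk, with 0 lower in either. Over all genes, 23.7% were called higher and 19.4% lower at 24 h, and 19.9% higher and 7.89% lower at 4 wk. Tgfbi, a matrix protein that binds collagen, stood at a mean of 84.1 CPM in knockout and 12.1 CPM in control at 24 h (log2 2.80, SE 0.13), and Dcn, the proteoglycan decorin, at 517.8 CPM in knockout and 122.3 CPM in control (log2 2.08, SE 0.19). Thbs2 and Fn1, the genes of thrombospondin 2 and fibronectin, were higher by 1.89 (SE 0.16) and 1.97 (SE 0.21). Dcn, Dpt and Lum stand in the fibroblast list as well. The 10 genes for collagenases, gelatinases, cathepsin K and their inhibitors had 8 higher at 24 h and 6 at 4 wk, again with 0 lower, led at 24 h by the gelatinase Mmp9 (log2 5.57, SE 0.46), Mmp14 (2.30, SE 0.20), the inhibitor Timp2 (0.89, SE 0.11) and the gelatinase Mmp2 (1.46, SE 0.19).

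Of 13 tested genes that trim and cross-link collagen, 7 were called higher and 1 lower in knockout at 24 h. The same counts held at 4 wk. Over all genes, 23.7% were called higher and 19.4% lower at 24 h, and 19.9% higher and 7.89% lower at 4 wk. All 14 genes of that list summed to 132.1 and 136.0 CPM in knockout and 132.9 and 140.0 CPM in control libraries at 24 h. Their sum was thus not higher in knockout. Pcolce, an enhancer of procollagen cleavage, was higher at 24 h by 1.55 (SE 0.35), Tll1, a procollagen C-proteinase, by 1.59 (SE 0.27) and the cross-linking enzyme Loxl3 by 1.36 (SE 0.30), while its relative Loxl2 was lower by -0.70 (SE 0.09). The folding machinery was mixed, with 6 of 22 higher and 1 lower at 24 h and 3 higher and 4 lower at 4 wk. The 6 of 22 higher at 24 h is close to the share over all genes. Serpinh1, the collagen chaperone HSP47, was at a mean of 57.2 CPM in knockout and 21.04 CPM in control at 24 h (log2 1.44, SE 0.24), Fkbp10 was higher by 1.85 (SE 0.32) and Ppib by 0.74 (SE 0.12), while Mia3, which helps procollagen leave the endoplasmic reticulum, was lower by -0.91 (SE 0.10).

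Laminins, nidogens and the other partners of collagen IV had 4 of 16 higher and 1 lower at 24 h and 7 higher and 0 lower at 4 wk. The 24 h count is close to the 23.7% of all genes called higher, and at 4 wk 19.9% of all genes were. Nid1, which bridges laminin and collagen IV, differed by 0.63 (SE 0.10) at 24 h, Lama4, a laminin chain of vessels, by 0.57 (SE 0.10), Lamb1 by 0.54 (SE 0.15) and Lama3 by -0.43 (SE 0.12). Their log2 values were smaller than those of the fibril partners, with a list median of 0.51 against 1.16 at 24 h. Receptors for collagen had 3 of 10 higher and 1 lower at 24 h, among them Ddr2, a receptor tyrosine kinase for fibrillar collagen (log2 1.91, SE 0.22), Lair1, an inhibitory receptor of immune cells (2.42, SE 0.22), and Itga1 (1.17, SE 0.18), with Adgrg1, a receptor for collagen III, lower (-1.33, SE 0.30). The genes of transforming growth factor beta signalling, a known inducer of fibrillar collagen, had 7 of 16 higher and 0 lower at 24 h and again at 4 wk, against the same shares over all genes. Tgfbr2 was higher by 2.29 (SE 0.09), Tgfbr3 by 1.38 (SE 0.09), Ltbp1 by 1.21 (SE 0.13) and the ligand Tgfb1 by 2.56 (SE 0.31) at 24 h. All of these named genes passed an adjusted p of 0.05 in edgeR's test over all genes.

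Fibroblast and stellate cell markers moved with the fibrillar chains. Of 10 fibroblast and stellate cell genes, 9 were higher in knockout at 24 h and 7 at 4 wk, with 0 lower, against 23.7% of all genes called higher at 24 h and 19.9% at 4 wk. They summed to 783.3 to 858.4 CPM in knockout and 240.7 to 241.6 CPM in control libraries at 24 h, 287.8 to 299.2 CPM in knockout and 88.3 to 110.4 CPM in control at 4 wk, and 77.0 to 95.9 CPM in knockout and 120.9 to 130.8 CPM in control under vehicle. Pdgfra, the receptor that marks these cells, had 46.1 and 41.2 CPM in knockout and 8.14 and 9.04 CPM in control libraries at 24 h. None of the 10 was at 0 in any group. As a share of all counts the 10 genes overlapped between genotypes under vehicle. They took 0.0093 and 0.0115% in knockout and 0.0100 and 0.0110% in control vehicle libraries. A list of 4 mesothelial genes went the other way at 24 h, at 14.8 to 17.1 CPM in knockout and 55.1 to 56.3 CPM in control. Of 10 endothelial genes, 4 were higher and 2 lower at 24 h, where 19.4% of all genes were called lower, and 1 higher and 2 lower at 4 wk, where 7.89% were, with sums of 686.4 to 705.6 CPM in knockout and 506.8 to 524.8 CPM in control at 24 h. Pecam1 was higher by 1.15 (SE 0.09) and Flt1 lower by -0.73 (SE 0.09) at 24 h. Macrophage genes summed to 1427 to 1441 CPM in knockout and 173.1 to 177.3 CPM in control at 24 h, with 8 of 8 higher. How far the share of each cell type sets the collagen levels was not tested.

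Promoter windows were at hand for 35 of the 44 members, 38 windows in all. The E-box CACGTG was in 0 of the 38, against 6.02% of 32851 RefSeq windows of the same length. CCAAT was in 13 of 38, against 33.8% of all windows, TATAAA in 5, against 12.4%, and GGGCGG in 22, against 32.7%, each searched on both strands. A match is a description of letters, and the lack of one says nothing of binding elsewhere.

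The genes whose log2 CPM ran most like that of Col1a1 over the 12 libraries were Fbln2, a matrix protein (r = 0.98), Itga5, a chain of the fibronectin receptor (0.98), Tmem205 (0.98), Echdc3 (0.97) and Angptl2 (0.97), among 13123 other genes averaging at least 2 CPM. Within the family Col1a2 was closest to Col1a1 (0.97), then Col5a1 (0.96) and Col15a1 (0.95), while Col6a6 (-0.58) and Col28a1 (-0.74) ran against it. For Col4a1 the closest genes were Usp21 (0.96), Efemp2, an elastic fibre protein (0.95), Tmed1 (0.95), Arsa (0.95) and Rabep2 (0.94), and within the family Col16a1 and Col4a2 (both 0.85). The libraries share depth, scaling and the GC effect, so these values describe the 12 libraries and carry no test.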

How the data were processed

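Poly(A) RNA of mouse islets was sequenced as stranded paired reads, 12 libraries in 6 groups of 2. Per the file headers, the authors ran StringTie 1.3.6 with a fixed annotation and the strand option; the build was mm10, per the submitters' processing notes, and no source used here names the aligner. The deposited estimated counts per gene were coverage times length over 75, rounded up, and were used as whole numbers. TPM and coverage per transcript and exon were taken from the deposited StringTie files, per the file headers, where they stand as text attributes beside other values.

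Genes were tested in edgeR 4.0.16 (R 4.3.3) with TMM scaling (factors 0.83 to 1.21), its filter on low counts (17411 of 24421 genes kept) and the robust quasi-likelihood F test, two-sided, in 1 fit of 6 group means with 6 residual degrees of freedom. Benjamini-Hochberg adjustment ran over all genes tested within each of 9 comparisons, at a threshold of 0.05. CPM used TMM-scaled library sizes, and log levels a prior count of 1. DESeq2 1.42.0 was run as an alternative, beside other scalings, no filter, a GC offset, a replicate block, fits of only the libraries compared, and leaving out each library. The fit was also run on simulated counts that gave all genes the same spread and held no GC differences between libraries. That run therefore does not cover the GC effect described above. Promoter sequences came from RefSeq (GRCm38.p6).

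The members and gene lists were chosen with earlier results of these data known, and the stomach, smooth muscle, liver and intestine lists were added after the values were seen. Chains of collagens I, III, IV and V, Col6a1 to Col6a3, Col15a1 and Col18a1 are named throughout. Of the others, those averaging at least 2 CPM are named where they are among the 5 largest gains or the 5 largest losses that passed, and of each list the 4 members of smallest adjusted p. Col17a1, Col22a1 and Col24a1 lie outside this rule and were chosen after their values were seen.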

Additional observations from a re-analysis of the deposited data

Results flagged for a closer look

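The response to STZ differed between genotypes for the genes below, by edgeR's test of the interaction, the log2 effect of STZ over vehicle in knockout minus that in control. At 24 h the difference was positive for Col1a2 (1.01), Col3a1 (1.40), Col4a5 (1.38), Col4a6 (3.47), Col5a1 (1.64), Col5a2 (1.496), Col6a1 (1.70), Col6a4 (9.37), Col6a5 (3.22), Col7a1 (3.05), Col12a1 (2.01), Col14a1 (1.27), Col18a1 (2.32) and Col23a1 (3.02). It was negative at 24 h for Col4a3 (-1.43), Col6a6 (-1.51) and Col28a1 (-1.55). At 4 wk the difference was positive for Col1a2 (1.33), Col3a1 (2.07), Col4a5 (1.98), Col4a6 (5.51), Col5a1 (2.08), Col5a2 (1.57), Col6a1 (2.85), Col6a2 (2.46), Col6a3 (1.42), Col6a4 (6.25), Col6a5 (2.17), Col7a1 (2.72), Col12a1 (1.22), Col14a1 (2.02), Col18a1 (2.66) and Col23a1 (4.91). Both sets of differences use the same vehicle libraries. The 24 h value for Col6a4 rests on 6 and 3 counts in the control STZ 24 h libraries, and both of its values rest on vehicle libraries of 13 to 30 counts. Leaving out single libraries ended the 24 h calls of Col1a2, Col5a1, Col7a1 and Col18a1, with adjusted p up to 0.13, and the 4 wk calls of Col1a2, Col6a2, Col7a1 and Col18a1, with adjusted p up to 0.115. Scaled to total counts, which moved the median of all genes by -0.79 at 24 h and -0.63 at 4 wk, 12 of the 17 calls at 24 h and 12 of the 16 at 4 wk remained. Those that ended were Col1a2, Col4a5, Col5a1, Col6a1 and Col18a1 at 24 h, and Col1a2, Col6a3, Col7a1 and Col12a1 at 4 wk. In a fit of only the libraries compared, 11 of the 16 calls at 4 wk remained.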

How the results depend on the processing

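Over 4725 combinations of a named gene's comparison and a setting, 4325 kept direction and call, 209 lost the call, 177 gained it and 14 changed sign. Scaling to 16 endocrine genes moved the median of all genes by -0.38 (knockout against control, vehicle), 1.78 (24 h) and 0.72 (4 wk), and the sign of Col4a3 (0.51), Col4a4 (1.04) and Col28a1 (0.28) for knockout against control at 24 h. It did the same for Col4a3 (0.93), Col4a4 (1.29), Col6a6 (0.30) and Col28a1 (0.44) for STZ 24 h against vehicle in knockout, for Col4a1 (0.67) and Col28a1 (0.69) at 4 wk, and for the 24 h difference of effects of Col4a1 (1.85), Col4a3 (0.75), Col6a6 (0.66) and Col28a1 (0.61). Total-count scaling turned Col14a1 under vehicle to 0.029, split the 24 h genotype calls 12 higher to 8 lower and the 24 h differences of effect 9 to 12.

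The number of collagen genes called moved by over 1.5 times as follows. For knockout against control under vehicle it was 10 with the GC offset, 10 with GC offset and replicate block, 1 with only the libraries compared and 11 with endocrine scaling, against 5. At 24 h these were 27, 28, 30 and 33, against 17, and at 4 wk it was 8 with only the libraries compared, also against 17. For STZ 24 h against vehicle in control it was 14, 14 and 19 under the first 3 settings, against 9. For STZ 4 wk against vehicle it was 29 in knockout with endocrine scaling, against 18, and in control 9, 9, 2 and 7, against 4. The 24 h difference of effects had 29 with endocrine scaling, against 17. Leaving out single libraries gave 0 to 6 genes under vehicle, 11 to 20 at 24 h and 14 to 18 at 4 wk for knockout against control. Against vehicle it gave 21 to 29 in knockout and 3 to 11 in control at 24 h, and 16 to 20 in knockout and 1 to 4 in control at 4 wk. For the differences of effect it gave 13 to 19 at 24 h and 12 to 17 at 4 wk.

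Fibrillar minus collagen IV, without Col5a3, was -0.861 in knockout and -1.61 in control at 24 h, -1.57 in knockout and -2.74 in control at 4 wk, and -2.76 in knockout and -2.18 in control under vehicle. With all 6 collagen IV chains it was 2.43 in knockout and 1.61 in control at 24 h, 1.03 in knockout and 0.87 in control at 4 wk, and 0.57 in knockout and 0.59 in control under vehicle. The cause of these changes was not tested.

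The labels tie same-lettered libraries to no shared source, so the block is an alternative only. Over 17411 genes the A minus B gaps of knockout and control correlated at r = 0.088 under vehicle, 0.037 at 24 h and 0.405 at 4 wk, and those of STZ and vehicle at -0.091 in knockout and -0.024 in control at 24 h and at -0.325 in knockout and -0.103 in control at 4 wk. With the replicate block the counts between genotypes were 4, 16 and 16, against 5, 17 and 17. Against vehicle they were 24 in knockout and 8 in control at 24 h and 17 in knockout and 4 in control at 4 wk, and the differences of effect had 16 and 15.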
